A study of Mus musculus with 40 samples.

Results

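Whole tibialis muscle was set against C2C12 cells differentiated to myotubes in culture. Of 40 mouse samples in the series, 4 belong to this pair of groups, chosen by their titles: 2 samples of tibialis and 2 of C2C12 cells after 7 days of differentiation. Tibialis muscle is a hind limb muscle, here taken out mechanically, so that its RNA comes from muscle fibres together with every other cell of the tissue. C2C12 is a mouse myoblast line; for myotubes it was grown to confluence and then kept in DMEM with 4% horse serum, and differentiation was judged by the number and size of cells with many nuclei. As a further group, 3 samples of proliferating C2C12 myoblasts, grown at low density in DMEM with 10% fetal calf serum, are given beside them. Their source name calls the line a preadipocyte line, and they were taken as myoblasts by their title. No sample carries a genotype or a treatment with an agent in its labels, and the strain, age and sex of the muscle donors are not stated in the sources used here. Total RNA was labelled with 33P as cDNA and hybridized to nylon filter arrays, and each array reports the brightness of 5760 spots on a linear scale.

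Skeletal muscle forms when myoblasts leave the cell cycle and fuse to myotubes, which then mature to fibres under innervation and load. Adult fast fibres draw on glycogen and glycolysis and take calcium back into the sarcoplasmic reticulum with a fast calcium pump, while developing myotubes still carry forms of contractile proteins known from slow, cardiac and embryonic muscle. C2C12 myotubes are a common model of this step, without nerve, vessels or the other cells of a muscle.

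Both tibialis arrays were similar to each other and the myotube arrays less so. Intensities are given in kU, units of 1000 on the scale of the deposited values. The median spot intensity before scaling was 94.8 and 130.9 kU on the tibialis arrays, against 28.3 and 62.7 kU on the myotube arrays, within a range of 0.941 to 132 kU over all 40 arrays. Over all 5760 normalized spots, tibialis replicates 1 and 2 correlated with Pearson r = 0.949, and the myotube replicates with r = 0.883. Myotube replicate 2 was closer to both tibialis arrays (r = 0.900 and 0.909) than to myotube replicate 1. It was about as close to the proliferating C2C12 arrays (r = 0.917, 0.895 and 0.927). Myotube replicate 1 stood apart, with r = 0.849 and 0.842 against the tibialis arrays. Before scaling, its 95th percentile of intensity was 4.43 times its 5th, against 14.3 times on myotube replicate 2. Calls that were lost without myotube replicate 1 are therefore given without it as well. Spots also followed their neighbours in table order. The Spearman correlation of the tibialis over myotube differences was 0.39 between adjacent spots of the table and 0.38 at a distance of 12 spots. Both are descriptions over spots of the same 4 arrays. The layout of the filter was not given, and a grid of 12 columns in table order was inferred from these correlations. Neighbours here are spots adjacent on that grid, and the median difference of the up to 8 around a gene is given where it stands out.

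Limma called 53 of 5760 spots different between tibialis and myotubes at an adjusted p under 0.05, which is 0.92% of them. Of these, 41 were higher in tibialis (0.712%) and 12 lower (0.208%), while 512 spots had an unadjusted p under 0.05. Differences are log2 fold changes of tibialis over myotubes ± SE, on the scale of log2(normalized intensity + 36.4 kU), which compresses the change of dim spots. Of the 41 higher spots 26 are paired with a single gene symbol, and of the 12 lower spots 10 are. The genes described here are 20 of the higher ones and all 10 lower ones that have a symbol. With median scaling in place of quantile normalization only 4 spots were called, those of Pygm, Atp2a1, Cdca7l and Tnnc1, and removing the scaling left 9, all higher. With 2 samples in each group, an exact permutation test of 1 gene alone cannot give a p below 0.333, so the adjusted p-values rest on the spread shared by all groups.

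**Figure D1:**
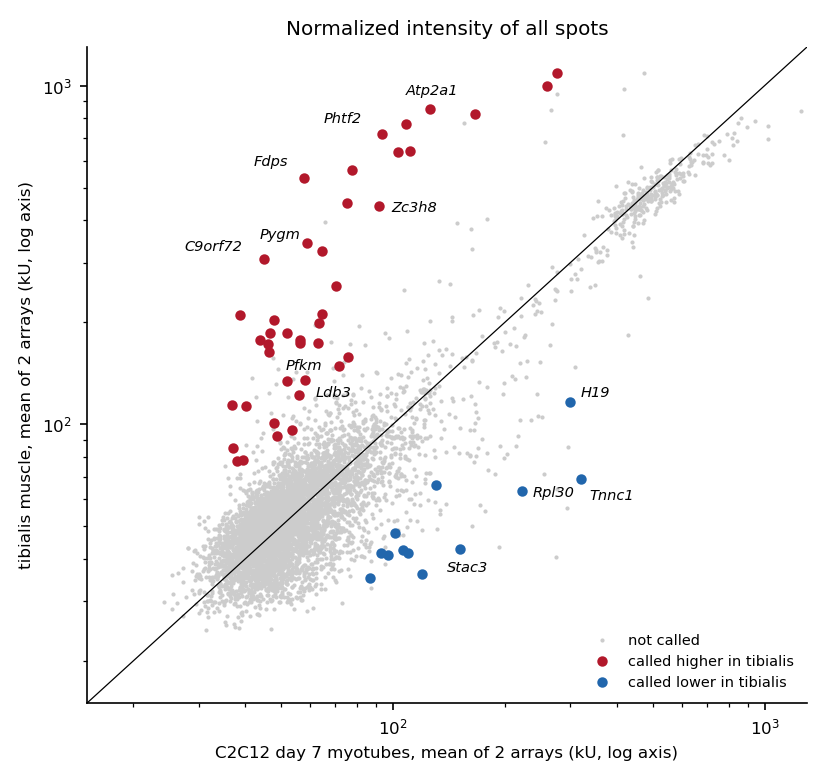
Normalized intensity of all 5760 spots, mean of 2 tibialis arrays on the vertical axis against the mean of 2 myotube arrays on the horizontal axis, both both in kU on log axes marks equal values. The 41 spots called higher in tibialis are red and the 12 called lower are blue; Atp2a1, Fdps and Pygm lie far above the line and Tnnc1 far below it.

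The genes with the smallest adjusted p-values were Pygm, Atp2a1 and Tnnc1. Pygm encodes muscle glycogen phosphorylase, which releases glucose units from glycogen. Atp2a1 encodes SERCA1, the fast-fibre pump that returns calcium to the sarcoplasmic reticulum. Tnnc1 encodes troponin C as found in slow and cardiac fibres, the calcium sensor of the thin filament. Their promoters are printed because these 3 genes have the smallest adjusted p-values, in both directions. Each is the 250 bases before the RefSeq start of the gene in build GRCm38.p6, 5′ to 3′ on the gene's own strand. Capitals mark the E-box CANNTG, the general form of the site that the MyoD family of muscle factors binds; it reads the same on both strands. The windows are chr19:6384158-6384407 (plus strand) for Pygm, chr7:126463074-126463323 (minus strand) for Atp2a1 and chr14:31208062-31208311 (plus strand) for Tnnc1.
Pygm: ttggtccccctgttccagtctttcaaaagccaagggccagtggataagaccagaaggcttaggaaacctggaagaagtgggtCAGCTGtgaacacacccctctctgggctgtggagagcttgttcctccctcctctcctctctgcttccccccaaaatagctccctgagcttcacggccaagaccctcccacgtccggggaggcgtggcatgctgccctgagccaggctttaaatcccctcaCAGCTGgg
Atp2a1: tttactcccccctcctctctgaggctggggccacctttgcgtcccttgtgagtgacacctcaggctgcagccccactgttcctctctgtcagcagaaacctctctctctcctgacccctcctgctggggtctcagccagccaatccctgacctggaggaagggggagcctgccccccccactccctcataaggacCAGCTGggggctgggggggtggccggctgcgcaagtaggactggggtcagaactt
Tnnc1: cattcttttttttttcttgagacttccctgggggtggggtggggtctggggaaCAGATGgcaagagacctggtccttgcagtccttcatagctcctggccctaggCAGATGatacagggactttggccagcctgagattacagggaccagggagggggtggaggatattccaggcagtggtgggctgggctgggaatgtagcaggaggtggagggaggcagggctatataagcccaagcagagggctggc

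The Pygm window holds 2 E-boxes, both CAGCTG, beginning 168 and 8 bases before the start. The Atp2a1 window holds 1, also CAGCTG, at 55 bases before the start. The Tnnc1 window holds 2, both CAGATG, at 197 and 145 bases before the start, and no CAGCTG. No MEF2 site and no CArG box, sites of 2 other muscle factors, matched in any of the 3 windows. Of 32851 mouse promoters of the same length, 66.22% hold CANNTG, 13.0% CAGCTG, 2.92% a MEF2 site and 1.47% a CArG box on either strand. A match is a description of letters, not of binding.

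Among genes of glycogen use and glycolysis, Pygm and Pfkm were called higher in tibialis. Of 10 measured genes of glycogen, glycolysis and phosphocreatine, 2 were called higher in tibialis and none lower, beside 0.712% and 0.208% of all spots. In 9 of the 10 the value was positive, beside 2905 of all 5760 spots. The median was 0.46, beside 0.00 over all spots. In size, 5 of the 10 were close to 0. In samples of whole cells or tissue, a lower value can come from fewer cells of a type or from less RNA per cell, and the arrays cannot tell these apart. Pygm had 293 and 356 kU on the tibialis arrays, against 48.1 and 81.2 kU on the myotube arrays, and rose by 1.85 ± 0.13 (limma adjusted p = 5.33e-12). Both tibialis arrays lay above each of the other 38 arrays of the series, and myotube replicate 1 was near the 42.4 to 43.0 kU of the proliferating cells. Pfkm, the muscle phosphofructokinase that commits sugar to glycolysis, had 172 and 126 kU in tibialis, against 47.6 and 96.0 kU in myotubes, a rise of 0.80 ± 0.16 (adjusted p = 0.00434). Its groups did not overlap and tibialis again exceeded all 38 other arrays. Of all 5760 spots, 22% had both tibialis arrays above both myotube arrays and 18.5% had both below, so such a separation alone says little. How many of all spots had both tibialis arrays above the 38 others was not counted. Where that order is given, here and below, it is a description without a measure of how unusual it is. Genes called higher in tibialis are also chosen for high tibialis values. The difference rests partly on single arrays: without myotube replicate 1 Pfkm was 0.48 (adjusted p = 0.484) and without tibialis replicate 1 it was 0.63, neither called, while Pygm kept its call with values of 1.61 to 2.09 when each sample was left out.

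A further 3 genes of this list had large values that missed the threshold. Eno3, the muscle form of enolase, had 266 and 392 kU in tibialis, against 162 and 164 kU in myotubes (0.85 ± 0.23, adjusted p = 0.0599). Ckm, the muscle creatine kinase that buffers ATP, had 251 and 248 kU in tibialis, against 119 and 95.1 kU in myotubes (1.00 ± 0.27, adjusted p = 0.07). Aldoa, aldolase A, had 495 and 290.4 kU in tibialis, against 78.5 and 219 kU in myotubes (1.28 ± 0.37, adjusted p = 0.0947). In each of the 3 genes both tibialis arrays lay above both myotube arrays, as in the 22% of all spots given above. Neither Ckm nor Aldoa was bright in muscle alone. For Ckm a liver array of 257 kU lay above both tibialis arrays. The Ckm means of liver (177 kU) and inguinal adipocytes (138 kU) lay between those of myotubes (107 kU) and tibialis (249 kU). Aldoa averaged 495 kU in a macrophage line and 440 kU in an adipocyte line, above the 393 kU of tibialis. Eno3 had its highest group mean in tibialis, 329 kU. Ckm lies beside very bright spots: the median difference of the spots around it was 0.63, and with that local level removed Ckm was 0.20 (adjusted p = 0.868); the part of the neighbours in its value was not tested further. Aldoa was 1.86 and called without myotube replicate 2, but 0.71 (adjusted p = 0.999) without myotube replicate 1 and 0.93 without tibialis replicate 1. The remaining members had values between -0.04 and 0.11: the muscle glycogen synthase gene Gys1 had 57.0 and 59.0 kU in tibialis, against 48.2 and 53.4 kU in myotubes, and Pfkp, Pfkfb3, Aldoc and Ppp1r1a were as close.

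**Figure D2:**
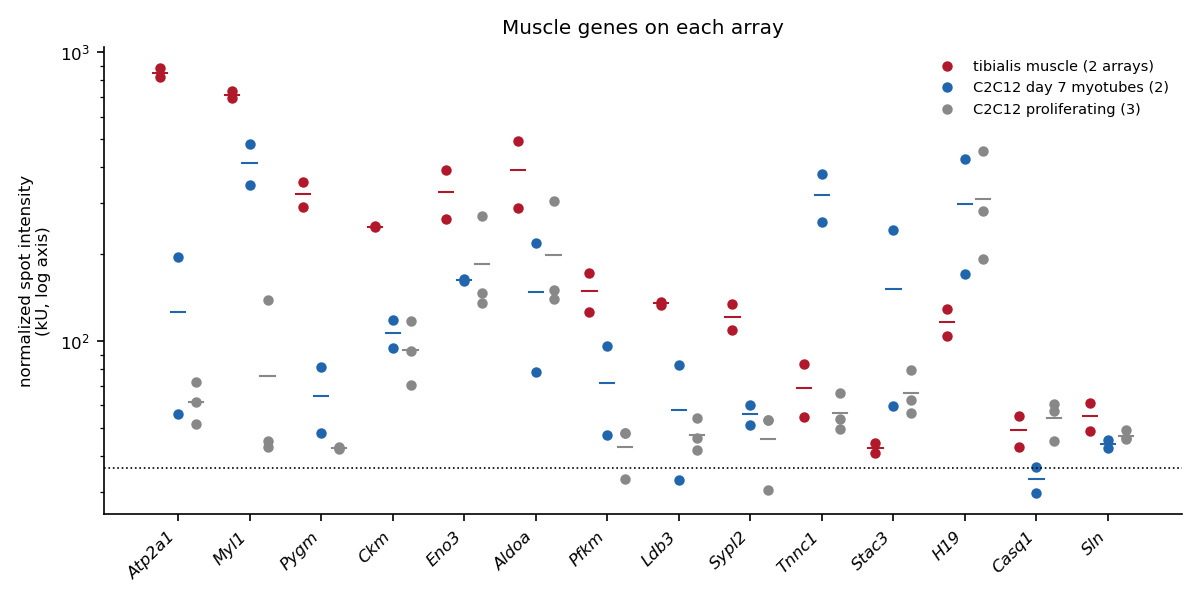
Normalized intensity in kU (log axis) of 14 muscle genes on each of 2 tibialis, 2 myotube and 3 proliferating C2C12 arrays; points are arrays, short lines group means, and the dotted line the added offset of 36.4 kU. Atp2a1, Pygm, Pfkm, Ldb3 and Sypl2 are highest in tibialis, Tnnc1 and Stac3 in myotubes, and Casq1 and Sln lie close to the dotted line in every group.

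Calcium handling and excitation held the largest single difference, with opposite changes in 2 members. Of 9 measured genes, Atp2a1 rose and Stac3 fell, beside 0.712% of all spots called higher and 0.208% lower. The median was 0.08. Atp2a1 had 881 and 819 kU in tibialis, against 56.3 and 196 kU in myotubes, a rise of 2.60 ± 0.22 (adjusted p = 9.25e-10). Tibialis stood above all 38 other arrays, and myotube replicate 1 lay within the 51.8 to 72.3 kU of proliferating cells while replicate 2 lay above them. The rise was 1.93 without myotube replicate 1 and 3.26 without myotube replicate 2, called in both. With the 2 groups fitted alone, on their own spread, Atp2a1 missed the threshold (adjusted p = 0.0925). Stac3, a component of the complex that couples the membrane signal to calcium release, had 44.6 and 41.0 kU in tibialis, against 242 and 59.9 kU in myotubes (-1.05 ± 0.25, adjusted p = 0.0301). That fall rests on 1 array: without myotube replicate 1 it was -0.28 (adjusted p = 0.999), and without myotube replicate 2 it was -1.82. Without either tibialis replicate it also missed the threshold, at -1.08 and -1.02.

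The other listed genes of calcium handling and excitation were not called. Casq1, the fast-fibre calcium buffer calsequestrin, had 55.3 and 43.1 kU in tibialis, against 29.8 and 36.8 kU in myotubes (0.29 ± 0.15, adjusted p = 0.603). Sln, the SERCA inhibitor sarcolipin, had 48.8 and 61.4 kU in tibialis, against 45.5 and 42.8 kU in myotubes (0.18 ± 0.14). Both genes were close to the offset on every array, where the scale is compressed most, so their small values do not show that expression was alike. Chrna1, the acetylcholine receptor subunit of the synapse, had 80.3 and 80.0 kU in tibialis, against 96.4 and 163 kU in myotubes (-0.48 ± 0.17, adjusted p = 0.246). The members Asph, Hrc and Sri, which bind calcium in or at the reticulum, and the potassium channel gene Kcna7 had values between -0.24 and 0.13. Outside this list, Sypl2 rose by 0.78 ± 0.17 (adjusted p = 0.0134). Sypl2 encodes mitsugumin 29, a membrane protein of the triad where tubules and calcium store meet, and it had 109 and 135 kU in tibialis, against 51.4 and 60.4 kU in myotubes, above all 38 other arrays. Without myotube replicate 1 or tibialis replicate 2 its value was 0.71 and 0.66, and not called.

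Among the contractile genes measured, Tnnc1 alone was called, beside 0.92% of all 5760 spots. Of 17 fast and adult sarcomere genes listed, 2 were measured, and of 19 slow, cardiac and developmental ones also 2. Tnnc1 fell: it had 54.6 and 83.3 kU in tibialis, against 380.2 and 259 kU in myotubes (-1.75 ± 0.16, adjusted p = 3.25e-09). Tibialis lay at the level of proliferating C2C12 cells, which had 49.9 to 66.3 kU, with a difference of 0.17 ± 0.14 from them (adjusted p = 0.682). The fall was called without each sample in turn, with its value nearest 0 at -1.50, without myotube replicate 1. Myl1, the alkali light chain of fast myosin, had 734 and 694 kU in tibialis, against 347 and 482 kU in myotubes (0.75 ± 0.23, adjusted p = 0.131). It is bright in both groups: over proliferating cells tibialis was higher by 2.85 ± 0.21 (adjusted p = 1.24e-11), and both tibialis arrays lay above the 38 others. The Myl1 difference was 0.97 and just passed without myotube replicate 2 (adjusted p = 0.0493), and it was 0.53 without myotube replicate 1 (adjusted p = 0.999). Mybph, a myosin binding protein, had 42.8 and 56.4 kU in tibialis, against 73.8 and 67.3 kU in myotubes (-0.32 ± 0.15). Myl3, the slow and ventricular light chain, had 46.3 and 52.9 kU in tibialis, against 39.7 and 41.0 kU in myotubes (0.16 ± 0.19).

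Among 9 measured genes of the Z-disc, titin and costamere, 2 were called higher and none lower, beside 0.712% and 0.208% of all spots. The list had a median of 0.06. Ldb3, a PDZ-LIM protein that anchors at the Z-disc, had 137 and 134 kU in tibialis, against 33.2 and 82.9 kU in myotubes (0.91 ± 0.21, adjusted p = 0.0185). Tibialis exceeded all 38 other arrays, but without myotube replicate 1 the difference was 0.53 (adjusted p = 0.957), and it missed the threshold without tibialis replicate 1 or 2 as well (0.90 and 0.92). Alpk3, an alpha-kinase gene of striated muscle, had 146 and 261 kU in tibialis, against 32.9 and 63.2 kU in myotubes (1.49 ± 0.29, adjusted p = 0.00472). Its spot was not brightest in muscle alone: inguinal adipocytes averaged 118 kU, with an array of 189 kU above tibialis replicate 1. Proliferating cells averaged 88.9 kU, above the 48.0 kU of myotubes, and tibialis was not called over them. The spots around Alpk3 had a median difference of 0.78, and with it removed Alpk3 was 0.75 (adjusted p = 0.0922). Alpk3 also lost its call without myotube replicate 1 (1.23) and without tibialis replicate 2 (1.13). The other 7 members, among them the muscle LIM protein gene Csrp3 (-0.19), the dystroglycan gene Dag1 (-0.15), the sarcoglycan gene Sgcd (0.12) and Pdlim7 (-0.29), were not called.

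**Figure D3:**
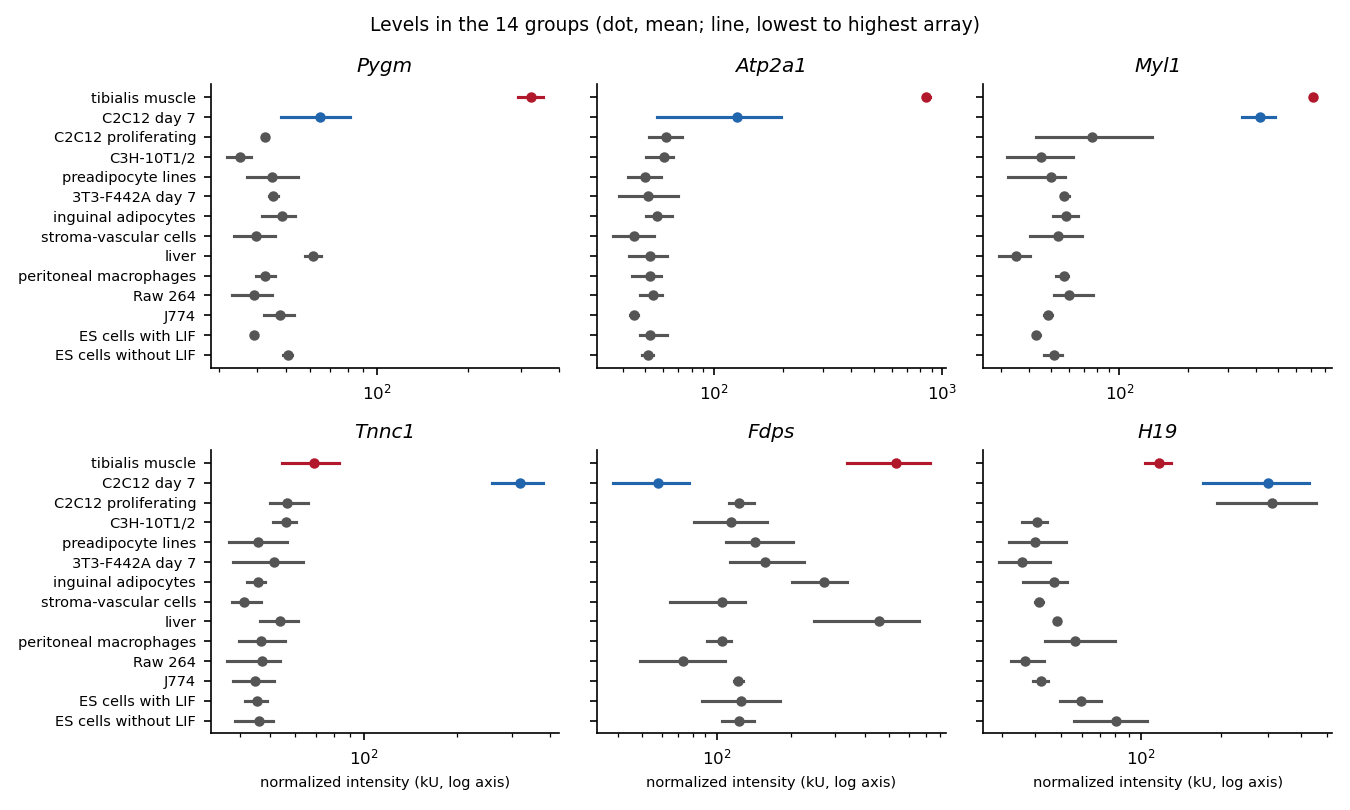
Levels of 6 genes in all 14 groups of the series, in kU on log axes; dots are group means and lines run from the lowest to the highest array. Pygm and Atp2a1 are highest in the 2 tibialis arrays, Myl1 in tibialis and then myotubes, Tnnc1 in myotubes, and Fdps in tibialis, liver and, at a lower level, inguinal adipocytes; H19 is high in both C2C12 groups.

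Among the 14 groups of the series, Pygm, Atp2a1 and Pfkm were highest in tibialis and next highest in myotubes. Pygm averaged 324 ± 44.6 kU in tibialis (SD, n = 2) and 64.6 ± 23.4 kU in myotubes (n = 2), followed by liver at 61.6 ± 5.4 kU (n = 2), which lies inside the myotube range. Atp2a1 averaged 850.3 ± 44.0 kU in tibialis and 126 ± 98.7 kU in myotubes, and the remaining groups had means of 44.8 to 61.9 kU. Pfkm followed the same order, with 149.1 kU in tibialis, 71.8 kU in myotubes and 53.8 kU in preadipocyte lines, the next group. Tnnc1 averaged 69.0 ± 20.3 kU in tibialis, against 320 ± 85.4 kU in myotubes. The next group below tibialis was proliferating C2C12 cells with 56.6 ± 8.6 kU, whose range overlaps that of tibialis. Ldb3 had 135 kU in tibialis, and the next group was not a muscle one: 3T3-F442A adipocytes had 65.9 kU and a macrophage line had 60.1 kU, against 58.1 kU in myotubes.

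Several of the genes higher in tibialis have no known place in contraction. Fdps, the farnesyl diphosphate synthase of sterol synthesis, had 336 and 729 kU in tibialis, against 38.1 and 77.3 kU in myotubes (2.54 ± 0.35, adjusted p = 4.18e-05). The myotube arrays lay below the 112 to 141 kU of proliferating cells, and the 2 tibialis arrays differed from each other by more than either group of C2C12 arrays. Liver was close to tibialis, with a mean of 453 kU and arrays of 248 and 658 kU. Fdps was the 1 called gene among 4 measured of sterol and lipid synthesis, beside 0.92% of all 5760 spots called. The others, Cyp51 (-0.10) and Mvd (0.04) of the same pathway and the fatty acid elongase gene Elovl6 (-0.11), were near 0. C9orf72, whose protein acts in autophagy and vesicle traffic, had 298 and 317 kU in tibialis, against 29.4 and 60.3 kU in myotubes (2.11 ± 0.31, adjusted p = 0.000114). Liver again had a high mean, 403 kU, from arrays of 228 and 578 kU.

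Cdca7l, a nuclear protein that binds MYC, had 282 and 232 kU in tibialis, against 54.4 and 85.8 kU in myotubes (1.47 ± 0.15, adjusted p = 7.71e-08). No other array of the series reached the tibialis level, and the next group after myotubes averaged 51.8 kU. A further 3 genes with roles in other processes also rose: Cyb5r4, a cytochrome b5 reductase (1.27 ± 0.26), Zc3h8, of a complex that elongates small nuclear RNAs (1.89 ± 0.35), and the zinc finger gene Zfp592 (0.98 ± 0.17). Zc3h8 averaged 441 kU in tibialis and 503 kU in liver, where the arrays were far apart at 236 and 770 kU. Without myotube replicate 1 these 3 genes lost their call, at 1.14, 1.90 and 0.70; Zc3h8 and Cyb5r4 lost it without tibialis replicate 2 too (1.73 and 1.17). The difference of Phtf2 (2.53 ± 0.51, adjusted p = 0.00642) came with low myotubes: it had 635 and 806 kU in tibialis, against 90.3 and 96.8 kU in myotubes, while proliferating cells had 426 to 644.5 kU. Fam135a was alike, with 505 and 621 kU in tibialis, against 54.2 and 101 kU in myotubes and 169 to 573 kU in proliferating cells (2.42 ± 0.50). Neither Phtf2 nor Fam135a was called over proliferating cells, with 0.36 and 0.97, and Cyb5r4 and Alpk3 were not either. Both Phtf2 and Fam135a lost their call against myotubes without myotube replicate 1 (2.50 and 2.12) and without tibialis replicate 2 (2.37 and 2.28). Low myotubes were not particular to Phtf2 and Fam135a. Myotubes also had the lowest mean of the 14 groups for Fdps, C9orf72, Zc3h8, Cyb5r4, Zfp592, Unc119b, Mtmr7, Epm2aip1, Zfp180 and Dapp1.

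On the inferred grid, a set of the higher genes lies beside very bright spots. Unc119b, Dusp26 and Dapp1 neighbour a spot whose tibialis mean was 1087 kU, and Mtmr7 and Alpk3 neighbour one of 1090.2 kU. The median difference of the surrounding spots was 0.63 for Unc119b, 0.82 for Dusp26, 0.35 for Dapp1 and 0.60 for Mtmr7, beside 0.01 over all spots. With the local level removed, Unc119b, a carrier of lipid-modified proteins, kept 0.88 of 1.43 and Mtmr7, a lipid phosphatase, 0.75 of 1.41, both still called. Dusp26, a dual-specificity phosphatase, had 0.46 of 1.26 (adjusted p = 0.542), and Dapp1, a signalling adaptor of lymphocytes, 0.22 of 0.60 (adjusted p = 0.46). Zfp180, a zinc finger gene, had 0.29 of 0.71, and Epm2aip1, named for its binding to the laforin gene product, 0.66 of 1.01, neither called any more. Without myotube replicate 1, calls were lost by Mtmr7 (1.34, adjusted p = 0.0562), Dusp26 (1.28), Epm2aip1 (0.91), Zfp180 (0.67) and Dapp1 (0.48). Without tibialis replicate 1 they were lost by Epm2aip1 (0.75) and Dapp1 (0.66), and without tibialis replicate 2 by Dusp26 (0.92), Zfp180 (0.56) and Dapp1 (0.54). Over all calls, 14 of the 41 higher spots had another higher call among their neighbours, and 9 of the 41 had a neighbour median above 0.5, beside 18 of all 5760 spots. None of the 12 lower spots had a lower call beside it, and their neighbours had a median of -0.19. With the local level removed, 7 of the 10 lower genes named lost their call: Stac3 (-0.76), Clip3 (-0.70), H19 (-0.91), Bmp1 (-0.54), Tceal9 (-0.81), Nxph3 (-0.34) and Rassf6 (-0.56), with adjusted p-values of 0.0595 to 0.621.

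**Figure D4:**
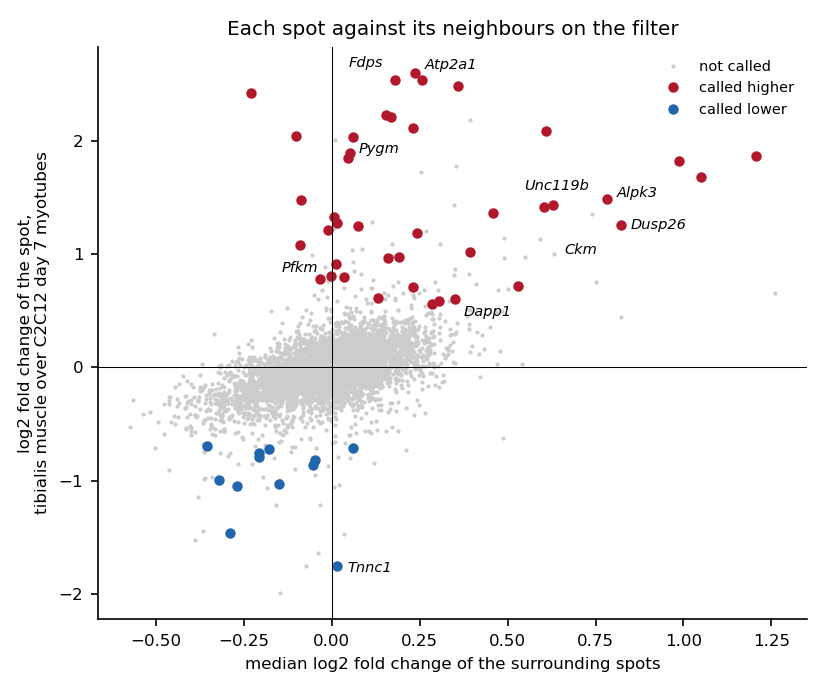
Log2 fold change of each spot, tibialis over myotubes, on the vertical axis against the median log2 fold change of the up to 8 spots around it on the inferred grid. Red spots were called higher and blue ones lower; Pygm, Pfkm and Tnnc1 lie near 0 on the horizontal axis, while Unc119b, Alpk3, Dusp26 and the uncalled Ckm lie at 0.63 to 0.82.

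The genes lower in tibialis, beside Tnnc1 and Stac3, came from several groups. H19, an imprinted non-coding RNA that is abundant in fetal muscle, had 104 and 129.6 kU in tibialis, against 171 and 428 kU in myotubes (-1.02 ± 0.26, adjusted p = 0.0479). Proliferating cells had 193 to 457 kU and also lay above tibialis (-1.11 ± 0.24, adjusted p = 0.00656). The myotube arrays were far apart: H19 was -1.61 without replicate 1 and -0.44 without replicate 2, and it was not called without myotube replicate 2 or without either tibialis replicate (-0.90 and -1.15). Tibialis still held more H19 than most of the series, with both arrays above 32 of the 38 others. All 5 measured imprinted growth genes had negative values, with a median of -0.33, beside 2855 negative of all 5760 spots. H19 alone of them was called, beside 0.208% of all spots called lower. Igf2, the fetal growth factor next to H19 in the genome, was at -0.05 ± 0.21 and close to the offset on every array. Peg3 and Impact, both imprinted, had -0.35 and -0.33.

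Rpl30, a protein of the large ribosomal subunit, had 28.6 and 98.9 kU in tibialis, against 244 and 201 kU in myotubes (-1.46 ± 0.30, adjusted p = 0.00736). It was not called without tibialis replicate 1 (-0.93) or without myotube replicate 1 (-1.34). Of 8 measured ribosomal protein genes 1 was called lower and none higher, beside 0.208% and 0.712% of all spots. Negative values were held by 7 of the 8, beside 2855 of all 5760 spots, and the median was -0.92. Other large values were those of Rps3 (-1.52 ± 0.42, adjusted p = 0.0742), Rpl27a (-1.45 ± 0.42, adjusted p = 0.105) and Rpl19 (-1.22 ± 0.45), none called. Rps3 had 49.4 and 37.3 kU in tibialis, against 220.4 and 166 kU in myotubes, and 88.6 to 227 kU in proliferating cells. The summed level of the 8 genes was 454 and 549.5 kU in tibialis, against 1294 and 1146 kU in myotubes and 973 to 1397 kU in proliferating cells. The ribosomal median was also below that of all spots with median scaling (-0.68) and without scaling (0.27, where all spots had a median of 1.08).

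The other lower genes had tibialis levels between 30.6 and 72.1 kU. Clip3, a microtubule-associated protein, had 36.7 and 35.8 kU in tibialis, against 178 and 60.9 kU in myotubes (-0.99 ± 0.21), and Tceal9 had 43.5 and 41.8 kU, against 136 and 76.4 kU (-0.82 ± 0.20). C1qtnf3, a secreted C1q-like protein, had 52.3 and 43.5 kU in tibialis, against 88.8 and 114 kU in myotubes (-0.71 ± 0.15). Bmp1, the protease that trims procollagen, differed by -0.72 ± 0.17, the neurexin ligand gene Nxph3 by -0.70 ± 0.17 (60.05 and 72.1 kU in tibialis, against 154 and 108 kU in myotubes) and Rassf6, of the Ras-association family, by -0.75 ± 0.19. Myotube replicate 1 was the brighter array for each of them but C1qtnf3. Without it Clip3 was -0.42, Tceal9 -0.51, Bmp1 -0.58, Nxph3 -0.49 and Rassf6 -0.45, none called, and these 5 genes were not called without either tibialis replicate. C1qtnf3 lost its call without myotube replicate 2 (-0.57) and without tibialis replicate 2 (-0.63). With no scaling the median of all spots was 1.08, while Tnnc1 (-0.59) and Rpl30 (-0.34) kept negative values, and the other 8 lower genes, Stac3 and H19 among them, lay between 0.12 and 0.52, below that shift.

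No listed gene of oxidative metabolism was called, beside 0.92% of all 5760 spots. At that share a list of this size often holds no call, so the absence says little about these pathways. None of 18 measured respiratory chain genes passed, with a median of -0.11 and values from -0.57 to 0.62, and none of 10 genes of the citrate cycle and fatty acid oxidation, with a median of 0.14. Atp5o of the ATP synthase had 102 and 127 kU in tibialis, against 51.1 and 73.2 kU in myotubes (0.62 ± 0.21, adjusted p = 0.196). Ndufa13 of complex I had 61.4 and 62.6 kU in tibialis, against 116 and 92.4 kU in myotubes (-0.51 ± 0.14, adjusted p = 0.0877). Cox6a1 of complex IV had the most negative value of the list, -0.57.

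The listed cell cycle and myogenic genes were not called either, which says little where 0.92% of all 5760 spots were called. Among 21 cell cycle genes none passed, and 15 had negative values with a median of -0.03, beside 2855 negative of all 5760 spots. Mki67, a marker of dividing cells, had 102 and 110.5 kU in tibialis, against 52.7 and 55.1 kU in myotubes (0.66 ± 0.17, adjusted p = 0.0543). Its spot lies beside the bright one that neighbours Unc119b, and the median difference around it was 1.26, larger than its own. None of 9 myogenic and satellite cell genes passed. Cdkn1a, the inhibitor p21 that holds differentiating muscle cells out of the cycle, had 78.6 and 82.9 kU in tibialis, against 189 and 146 kU in myotubes, and just missed the threshold (-0.79 ± 0.21, adjusted p = 0.0503). Lgals1, galectin 1, had 102 and 70.3 kU in tibialis, against 151 and 236 kU in myotubes (-0.89 ± 0.48), and 284 to 881 kU in proliferating cells.

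The listed matrix and cytoskeleton genes were not called, beside 0.92% of all 5760 spots, a share at which such lists often hold no call. Bmp1 (-0.72) and Clip3 (-0.99), called lower in tibialis, stand outside these lists. None of 12 fibroblast and matrix genes passed, 10 of them negative with a median of -0.17, and none of 17 genes of the cytoskeleton of non-muscle cells, 11 of them negative with a median of -0.05, beside 2855 negative values among all 5760 spots. Tmsb10, which binds actin monomers, had the most negative value of all 5760 spots: it had 44.9 and 36.4 kU in tibialis, against 336 and 214 kU in myotubes (-1.99 ± 0.61, adjusted p = 0.131). The proliferating arrays were themselves spread from 162 to 694 kU, and tibialis was called lower than those (-2.03, adjusted p = 0.0404). Timp2, an inhibitor of matrix proteases, had 47.4 and 51.8 kU in tibialis, against 63.6 and 154 kU in myotubes (-0.68 ± 0.39), and the collagen chaperone gene Serpinh1 had 35.1 and 35.9 kU, against 78.7 and 52.5 kU (-0.49 ± 0.21).

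**Figure D5:**
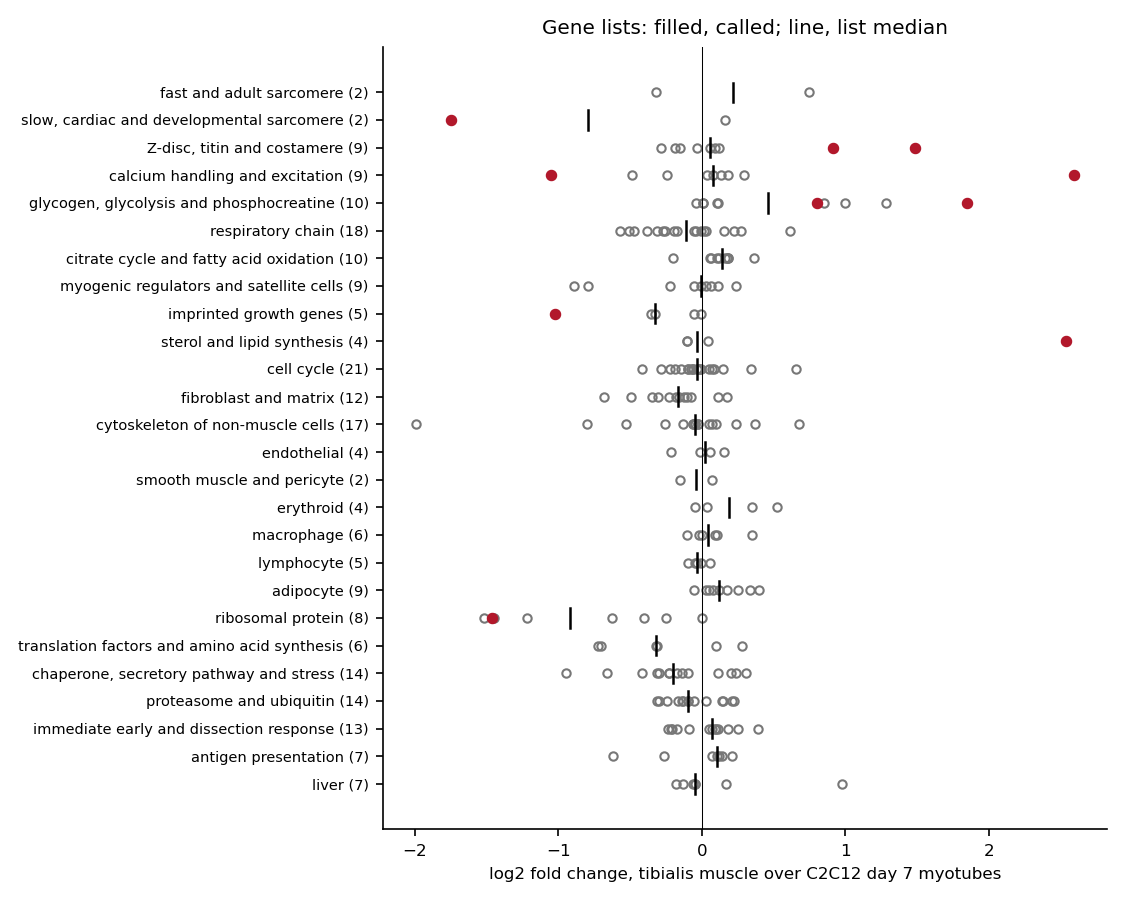
Log2 fold change of tibialis over myotubes for every measured member of 26 gene lists, with the number measured in brackets; filled points were called, open points were not, and vertical bars are list medians. Calls fall in the sarcomere, Z-disc, calcium, glycogen, imprinted, sterol and ribosomal lists, and the medians of the lists of other cell types lie near 0.

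Listed markers of other cell types of a whole muscle were not called, beside 0.92% of all 5760 spots. At that share, lists this short often hold no call, so its absence does not show how many such cells were present. This held for 4 endothelial, 2 smooth muscle and pericyte, 4 erythroid, 6 macrophage, 5 lymphocyte and 9 adipocyte markers measured. The medians of these lists lay between -0.04 and 0.19. Some markers are not particular to such cells: Lpl and Hadh of the adipocyte list also stand in the list of fatty acid oxidation. The summed endothelial level was 194 and 193 kU in tibialis, against 187 and 199 kU in myotubes, and the lymphocyte level 312 and 296 kU, against 330.1 and 295 kU. For macrophage markers it was 320.0 and 362 kU in tibialis, against 291 and 338 kU in myotubes, where the highest array of the series had 1109 kU. Erythroid markers summed to 307 and 294 kU in tibialis, against 242 and 235 kU in myotubes, with Hbb-b1, the adult beta globin, at 105 and 71.1 kU, against 54.5 and 44.6 kU (0.52 ± 0.32). Adipocyte markers summed to 687 and 708 kU in tibialis, against 561 and 606 kU in myotubes. Of their values 8 of 9 were positive, beside 2905 of all 5760 spots. Smooth muscle and pericyte markers summed to 91.1 and 277 kU in tibialis, against 230.4 and 107 kU in myotubes; the myosin kinase gene Mylk set that spread, with 51.0 and 240.2 kU, against 177 and 66.7 kU. Of 7 liver genes none was called (median -0.04); Fgb, a fibrinogen chain, had 0.98 ± 0.30 and a median of 0.55 around its spot. No spot is at 0 on these arrays, the markers of nerve and Schwann cells were not measured, and the part of other cells in the differences was not tested.

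The listed stress and turnover genes were not called. With 0.92% of all 5760 spots called and 2855 of them negative, these counts say little by themselves. No call fell among 14 chaperone and secretory genes (median -0.20, 10 negative), 14 proteasome and ubiquitin genes (-0.10), 6 translation factors and amino acid synthesis genes (-0.32), 13 immediate early genes that respond to dissection (0.07) or 7 antigen presentation genes (0.11). Copz2, a coat protein of Golgi vesicles, had 62.4 and 101 kU in tibialis, against 121 and 285 kU in myotubes (-0.95 ± 0.39), and 383 to 688 kU in proliferating cells. Tcp1, a subunit of the chaperonin that folds actin and tubulin, had 46.4 and 69.6 kU in tibialis, against 137.6 and 90.0 kU in myotubes (-0.66 ± 0.18, adjusted p = 0.0586).

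Tibialis set against proliferating C2C12 cells gave 144 calls of 5760 spots (2.5%), 54 higher (0.938%) and 90 lower (1.56%), with the same 2 tibialis arrays. Of the 41 spots higher than in myotubes 26 were also higher than in proliferating cells, and of the 12 lower spots 4 were also lower. Among the genes named, Pygm was higher by 2.18 ± 0.12 over proliferating cells and by 1.85 over myotubes, and Atp2a1 by 3.18 ± 0.20 and 2.60. Pfkm had 1.22 ± 0.14 over proliferating cells and 0.80 over myotubes, Ldb3 had 1.04 ± 0.19 and 0.91, and Sypl2 had 0.95 ± 0.15 and 0.78. Eno3 (0.75, adjusted p = 0.0419) and Ckm (1.15, adjusted p = 0.00752) passed over proliferating cells and missed the threshold over myotubes; that difference was not tested. Of the 10 lower genes named, Rassf6 (-0.84) and H19 (-1.11) were also called lower than in proliferating cells, and 8 of the 10 had negative values. Sri, the calcium-binding sorcin, had 59.6 and 44.8 kU in tibialis, against 99 to 119.5 kU in proliferating cells (-0.69 ± 0.15, adjusted p = 0.00793), and 39.8 and 61.2 kU in myotubes. Pdlim7 was lower than in proliferating cells as well (-0.56 ± 0.15, adjusted p = 0.036).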

How the data were processed

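The deposited values are linear spot intensities, 1 array per sample. Per the labels, the authors extracted RNA with Tripure, treated it with DNase, labelled cDNA with 33P, hybridized Resgen filters and quantified spots with Imagene; its version and any background correction or scaling are not stated in the sources used here. Of 5760 spots, 3420 carry 1 symbol in the platform annotation, 98 several and 2242 none; 3346 symbols were updated by gene identifier through RefSeq. Quantile normalization was applied over all arrays, followed by log2(intensity + 36370), where the added offset is the 10th percentile of the normalized values.

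Limma 3.58.1 (R 4.3.3) gave two-sided moderated tests from 1 linear model over all 14 groups with 25 residual degrees of freedom, the 2 samples of 3T3-L1 averaged, and Benjamini-Hochberg adjustment ran over all 5760 spots. The number of arrays limits the precision: the median SE was 0.164 for the comparison with myotubes. The labels do not say whether replicates are separate animals or cultures. The p-values rest on the spread of arrays within all 14 groups, most of them outside this comparison, and that spread may be technical. In the preadipocyte group it is a spread between different cell lines.

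Named genes are called spots with 1 symbol, up to 20 per direction by adjusted p, every measured member of the 5 muscle lists and up to 4 members with the smallest p of each other list; some of them are only counted here. A gene with several spots is given by its brightest called spot, or by its brightest spot where none was called. Groups, members and lists were chosen with earlier results of these data known. Alternatives were median scaling, no scaling, a floor, 4 times the offset, 5th percentile subtraction, bright spots, the compared groups alone with and without a replicate block, omission of embryonic stem cells grown without LIF, another variance model, averaged spots, a running median, array weights and leaving out each sample. Removal of the local level, the median of up to 8 surrounding spots on a grid of 12 columns inferred from the correlations, and median scaling without those stem cells were added after seeing the data. Promoters come from RefSeq, build GRCm38.p6. Python 3.11.15 and matplotlib 3.10.9 drew the figures.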

Additional observations from a re-analysis of the deposited data

How the results depend on the processing

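Against 41 higher and 12 lower spots over myotubes, median scaling called 3 and 1, no scaling 9 and 0, subtraction of the 5th percentile 21 and 13, bright spots only 58 and 21, the compared groups alone 20 and 7, array weights 66 and 29, removal of the local level 31 and 9, and median scaling without embryonic stem cells grown without LIF 6 and 1. With a floor it was 43 and 16, with a running median 44 and 16. With a replicate block on the compared groups the count was 103 and 81; the same-numbered samples' deviations correlated at 0.10 over 2 pairs, too few to show a pairing, and the labels give none. Leaving out each sample gave 6 to 67 higher and 2 to 96 lower. Against 54 higher and 90 lower over proliferating cells, median scaling called 5 and 2 with or without those stem cells, no scaling 5 and 0, subtraction 21 and 94, array weights 136 and 198, the replicate block 7 and 25, and leaving out each sample 24 to 52 and 18 to 99; the cause was not tested. Without scaling all spots shifted by a median of 1.08, and 8 genes turned sign, none called: Clip3 0.35, C1qtnf3 0.32, Stac3 0.42, Bmp1 0.42, Tceal9 0.43, Nxph3 0.52, Rassf6 0.44 and H19 0.12. Over proliferating cells Rassf6 0.066, Cct2 0.41, Pdlim7 0.32 and Sri 0.30 did so. Of 30 named called genes 7 were called without each of the 4 samples, and 1, Pygm, under every one of the 15 other settings as well. With median scaling Pygm, Atp2a1, Cdca7l and Tnnc1 were called, and Tnnc1 was -0.59 and not called without scaling. Of 102 uncalled named genes, 67 changed sign under some setting. Spot intensities start well above 0 on the 7 muscle and C2C12 arrays, which limits what dim spots can show.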
